A study of Mus musculus with 19 samples.

Results

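Hepatic lipid synthesis is run by a small set of transcription factors and the enzymes they switch on. SREBP-1 and SREBP-2, the products of Srebf1 and Srebf2, are held in the endoplasmic reticulum membrane when sterols are plentiful and are cleaved and sent to the nucleus when they are scarce, SREBP-1 acting mainly on fatty acid genes and SREBP-2 on cholesterol genes. ChREBP, encoded by Mlxipl, responds to glucose metabolites, and the nuclear receptor encoded by Ppard binds fatty acids and favours their oxidation. Methylation of cytosine in CpG dinucleotides, which uses S-adenosylmethionine (SAMe) as the methyl donor, is associated with silencing at CpG-rich promoters and is common within transcribed genes.

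The lipid genes described here are 9: the regulators Srebf1, Srebf2, Mlxipl and Ppard, the fatty acid enzymes Fasn, Acacb and Elovl5, the lipoprotein gene Apob and the oxidation gene Cpt1a. They were chosen by the deposited differences and q-values themselves, as lipid genes in which the authors' tables list differing CpG sites, so their differences are descriptions and carry no test. A site belonged to a gene when it lay inside it or within 2 kb of either end (RefSeq coordinates on mm10). This gave 26 positions out of 8525 listed over the 3 tables.

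CpG methylation in mouse liver had been measured by reduced-representation bisulfite sequencing, which reads fragments released by restriction enzymes (here MspI, which cuts at CCGG, and TaqαI, which cuts at TCGA). The animals, all aged 10 months, were 8 untreated mice of MAT1A WT genotype, 6 placebo-treated MAT1A KO mice and 5 MAT1A KO mice on SAMe supplementation, with a treatment of 8 weeks in the series title. Mat1a is the gene of hepatic methionine adenosyltransferase, the enzyme of SAMe synthesis. The untreated WT mice serve both WT comparisons, so each sets a knockout together with a treatment procedure against neither, and genotype and procedure cannot be told apart. The sources used here do not give strain, sex or how the knockout was built.

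The authors' tables give group differences in percentage points for listed sites only. Every listed difference was above 20 in size, and the largest listed q-value was 0.0495. They hold no level, coverage or value per animal, so no spread between animals can be given and the depth is unknown. The tables do not say which group was subtracted. Each value was taken as KO minus WT, or SAMe minus placebo, which is the customary order of methylKit, and under the opposite order all signs given here would flip together. A position missing from a table was below the thresholds or not covered. The tissue was bulk liver, so a change in the share of cell types and a change within cells cannot be told apart, and the tables hold no expression of marker genes against which the label of liver could be checked.

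Sequences of 3 promoters and of a microRNA set the positions in context. Srebf2 and Fasn are shown because they had the most listed positions, and Srebf1 because a pair of its positions lay near an internal start. Each is shown as the 250 bases before a RefSeq start site (GRCm38.p6, the assembly behind mm10), read 5′ to 3′ on the gene's strand, with every CG in capitals because these are the bases that CpG methylation can mark. Srebf1 has 3 annotated starts, and the one shown is the innermost, which is nearest to its listed sites. The Srebf2 stretch holds 25 CG, 2 CCGG and 1 TCGA, the Srebf1 stretch 30 CG and 4 CCGG, and the Fasn stretch 33 CG, 2 CCGG and 1 TCGA.
Srebf2 promoter, chr15:82147019-82147268, plus strand: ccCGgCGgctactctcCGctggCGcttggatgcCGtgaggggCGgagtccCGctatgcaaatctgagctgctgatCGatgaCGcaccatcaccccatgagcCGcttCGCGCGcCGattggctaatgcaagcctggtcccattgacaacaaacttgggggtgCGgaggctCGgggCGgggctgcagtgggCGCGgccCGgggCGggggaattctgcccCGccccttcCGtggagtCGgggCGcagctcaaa
Srebf1 promoter, chr11:60210472-60210721, minus strand: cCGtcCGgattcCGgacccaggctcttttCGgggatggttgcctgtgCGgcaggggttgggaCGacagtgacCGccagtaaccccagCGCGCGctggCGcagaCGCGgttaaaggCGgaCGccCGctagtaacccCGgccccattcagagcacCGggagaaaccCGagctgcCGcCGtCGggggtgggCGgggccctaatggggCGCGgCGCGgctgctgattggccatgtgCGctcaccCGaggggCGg
Fasn promoter, chr11:120824548-120824797, minus strand: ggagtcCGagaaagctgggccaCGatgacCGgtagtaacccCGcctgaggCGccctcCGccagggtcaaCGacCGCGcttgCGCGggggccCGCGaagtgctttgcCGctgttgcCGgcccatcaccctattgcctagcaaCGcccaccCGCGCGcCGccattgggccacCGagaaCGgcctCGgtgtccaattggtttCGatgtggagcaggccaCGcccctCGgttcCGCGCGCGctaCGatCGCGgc

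None of the 26 listed positions lay in these promoters or in any other annotated promoter window of the 9 genes. The windows, 300 bases each (250 before and 50 after a start), number 12 for these genes, and 0 of 12 held a listed site. Over all 32817 distinct RefSeq promoter windows the share with a listed site was 0.192% for WT vs KO placebo, 0.14% for the SAMe comparison with WT and 0.00609% between the KO groups, so 0 of 12 does not set these genes apart. The windows of the 9 genes held 9 to 39 CG each, with a median of 21 against 7 over all windows. CCGG, the MspI site, occurred in 11 of the 12 windows and in 52.8% of all windows. The E-box CACGTG, which reads the same on both strands and is bound by bHLH factors such as SREBP and ChREBP, occurred in the outer Mlxipl window and in that of Elovl5, against 7.15% of all windows. The sterol-element pattern TCACNCCAC, searched on both strands, occurred in the inner Mlxipl window, against 1.24% of all windows. Only full matches were counted, so the other windows can still hold sequences close to this pattern. The E-box and the sterol pattern never shared a window, while each CCGG and TCGA includes a CG. These matches describe letters and do not show binding.

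The nearest annotated start was between 1548 and 82673 bp away from the 26 positions, with a median of 21.13 kb. Over all listed sites paired with the coding genes they fell in or near, the median was 10.58 kb for the WT vs KO placebo table and 9.42 kb for that of WT vs KO SAMe. None of the 26 positions was within 1 kb of such a start, against 11.2% and 12.1% of those pairs. This depends on the starts used. For Srebf1, Fasn, Acacb, Apob and Cpt1a the gene's 5′ end lies before the outermost of them. The Cpt1a position is 766 bp from that gene's 5′ end. The 9 genes are longer than most, 19.2 to 104.4 kb with a median of 58.1 kb, whereas the median coding gene spans 17.2 kb, and the part of gene length in these distances was not tested. Of the positions, 25 lay inside their gene and 1, at Cpt1a, outside it. Exons and introns were not distinguished.

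**Figure D1:**
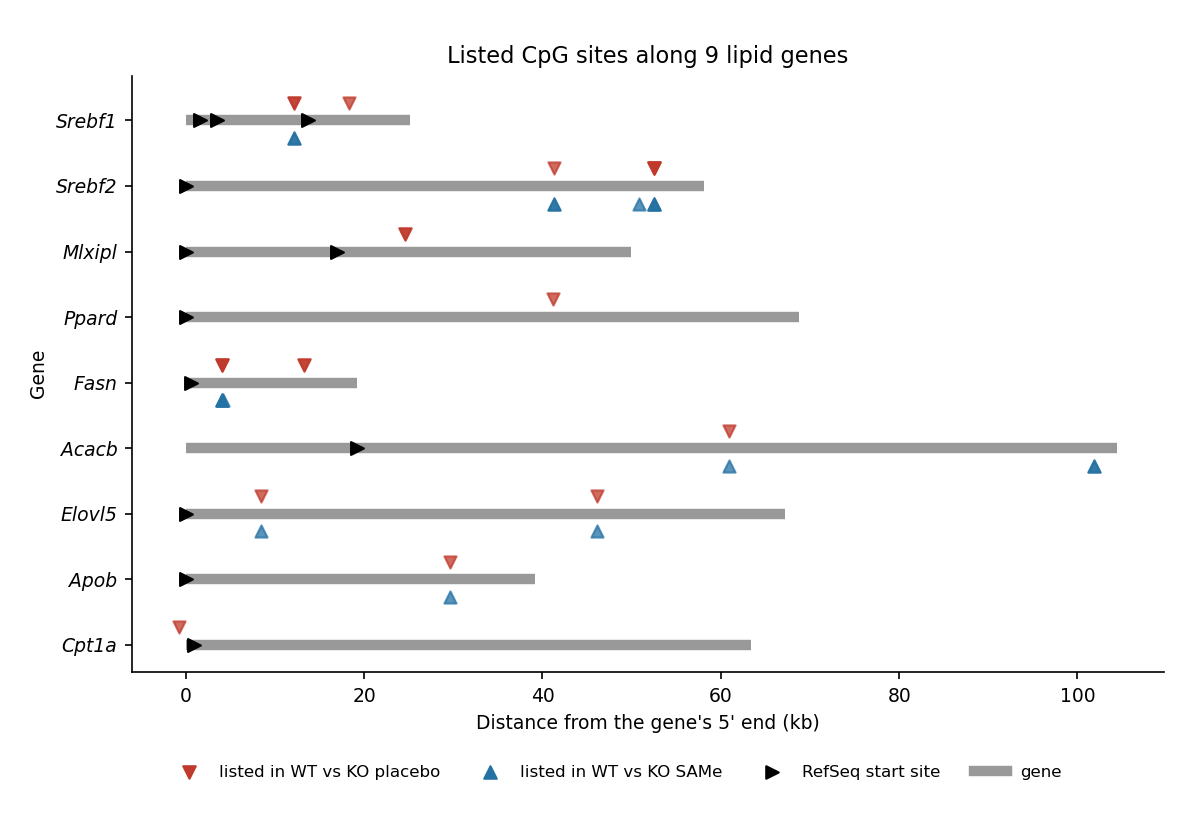
The 26 listed CpG positions along the 9 genes, plotted as distance from each gene's 5′ end in kb, with grey bars for the genes, black arrowheads for RefSeq start sites, red triangles above for sites listed in WT vs KO placebo and blue triangles below for sites listed in WT vs KO SAMe. Positions close together overlap in the plot, as in Srebf2 and Fasn, and the Srebf1 pair sits just before the innermost start.

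The comparison of placebo-treated KO with WT liver asks how methylation differs in liver without Mat1a. All 9 genes had a listed site there, which their selection fixed; 12.5% of the 21887 protein-coding genes had a site in either direction and likewise 12.5% a lower one, and 14.9% of coding genes between 19.2 and 104.4 kb long had one. The 21 positions of this table were all lower in KO liver, from −54.7 to −20.4 percentage points in the authors' deposited table, with a median of −28.8 beside −25.9 over all 6721 listed sites, of which 6678 were lower. The comparison of SAMe-treated KO with WT liver asks what remains under SAMe. It listed 18 positions in 6 of the 9 genes (10.8% of coding genes had a site in either direction, 10.7% a lower one, and 12.8% of those in that length range had a site), again all lower, from −56.8 to −20.0 with a median of −29.4 in the authors' deposited table, beside −26.6 over its 5383 sites. Mlxipl, Ppard and Cpt1a were not listed there. Of the 5383 sites of this comparison, 5330 were lower. KO placebo vs KO SAMe, which asks what SAMe changed within KO mice, listed a site in 0 of the 9 genes, where 0.658% of coding genes had a site in either direction, 0.274% a lower one and 0.616% of those in that length range a site, so a count of 0 is near the background.

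**Figure D2:**
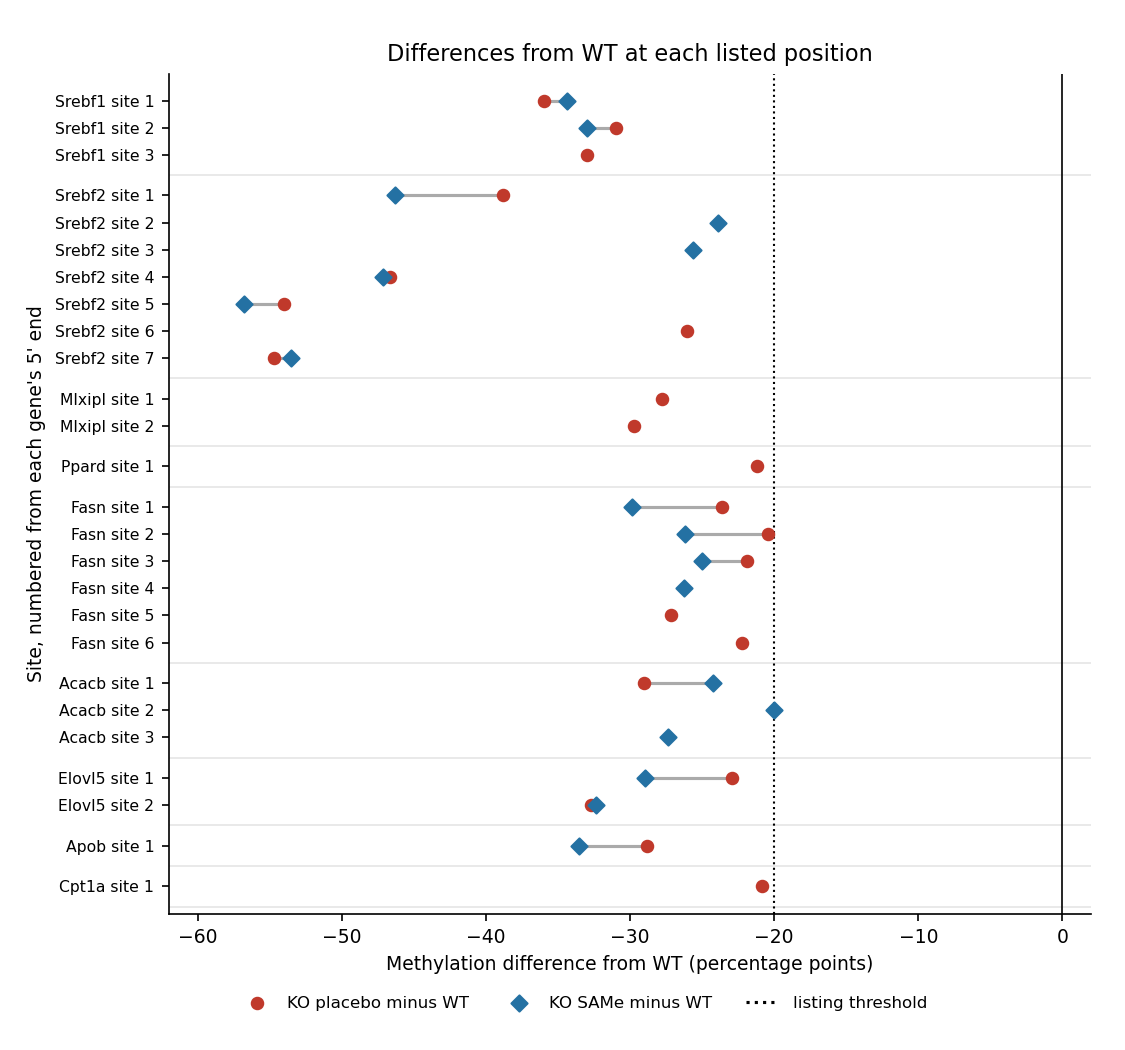
Methylation difference from WT in percentage points at each of the 26 positions, numbered from each gene's 5′ end, with red circles for KO placebo minus WT, blue diamonds for KO SAMe minus WT, a grey line where both were listed and a dotted line at the listing threshold of −20. Every point lies left of the threshold, 4 of the 7 Srebf2 positions reach −38.8 or lower in both comparisons, and the Fasn points stay between −29.9 and −20.4.

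Srebf2 (chromosome 15, 82147269 to 82205379, plus strand) carried the lowest values of the 9 genes. Its 7 positions formed 3 groups in the 3′ part of the gene, between 71.0% and 90.4% of the way along it. The group nearest the 3′ end held 4 positions within 50 bp (82199754 to 82199803), all read on the plus strand. Neighbouring sites this close can come from the same sequenced fragments, so they are not independent measurements. In placebo-treated KO liver these 4 positions stood at −46.7, −54.0, −26.0 and −54.7 percentage points in the authors' deposited table. Under SAMe 3 of them were listed, at −47.2, −56.8 and −53.5 in the authors' deposited table, and position 82199782, the −26.0 of the placebo table, was not. The run thus held low values in both KO groups at the same 3 CpG, and the placebo comparison a smaller difference at the CpG between them.

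Few listed sites anywhere were lower than the lowest of this run. Of all listed sites, 1.19% lay below the lowest Srebf2 site in the placebo table and 1.17% in the SAMe table. Sites at −40 or lower were 9.24% and 10.8% of the listed sites, and among the 9 genes they occurred in Srebf2 alone, at 3 positions in the placebo table and 4 in the SAMe table. Srebf2 had 5 listed sites in WT vs KO placebo, 4 of them in this run. Fasn also had 5, in a shorter gene (19.2 kb against 58.1 kb). Of the coding genes with a site, 6.99% had 5 or more and 56.1% had a single one.

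**Figure D3:**
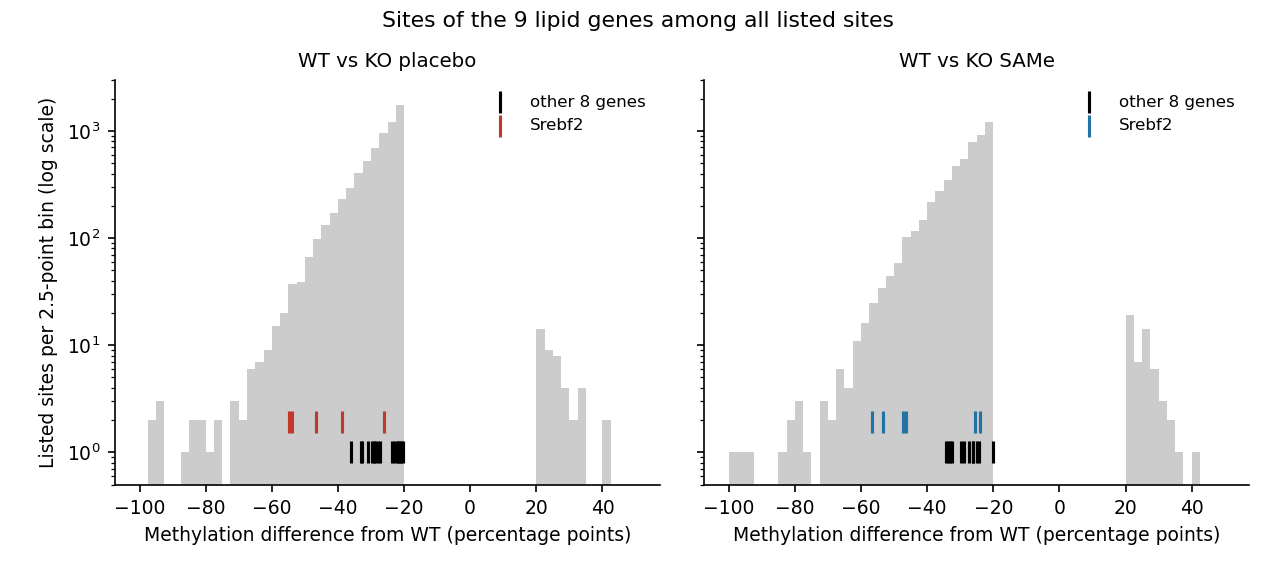
Histograms of all listed methylation differences in bins of 2.5 percentage points (log scale) for WT vs KO placebo on the left and WT vs KO SAMe on the right, with coloured ticks for the Srebf2 sites and black ticks for those of the other 8 genes. The Srebf2 ticks reach −54.7 and −56.8, while those of the other genes stop at −36.0 and −34.4.

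Upstream of that run, position 82188519 of Srebf2 stood at −38.8 in placebo-treated and −46.3 in SAMe-treated KO liver in the authors' deposited table. Its neighbour 82188529 was listed under SAMe only, at −23.9 in the authors' deposited table (q = 3.9e-13). Position 82198050, also listed under SAMe only, stood at −25.6 in the authors' deposited table, with a q-value listed as 0. It lies 72 bp before the hairpin of Mir33 (82198122 to 82198190), a microRNA gene inside Srebf2 whose products repress genes of cholesterol export. Both mature forms are shown because the site is the nearest listed one to this microRNA, with the seed, bases 2 to 8, in capitals (RefSeq, GRCm38.p6).
mmu-miR-33-5p: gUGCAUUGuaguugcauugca
mmu-miR-33-3p: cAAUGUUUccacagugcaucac
The seeds of the arms differ, and the tables hold no measure of the microRNA itself.

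Srebf1 (chromosome 11, 60199084 to 60224186, minus strand) had 3 positions, and 2 of them lay within 6 bp of each other, 1548 and 1553 bp upstream of its innermost start at 60210471, the promoter printed above. The gene is known to give the SREBP-1a and SREBP-1c forms from alternative promoters. Position 60212019 stood at −30.9 in placebo-treated and −33.0 in SAMe-treated KO liver, and position 60212024 at −36.0 and −34.4, in the authors' deposited table. These values in the KO groups lay within 2.03 points of each other. The third position, 60205918, is 4553 bp downstream of the same start, and was listed at −33.0 in WT vs KO placebo only in the authors' deposited table.

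Mlxipl (chromosome 5, 135089890 to 135139768) had a pair of positions within 32 bp near the middle of the gene, 7535 and 7566 bp past its inner start. They stood at −27.8 (q = 2.96e-05) and −29.7 (q = 6.44e-06) in WT vs KO placebo in the authors' deposited table, and neither was listed under SAMe. Ppard (chromosome 17, 28232754 to 28301469) had a single position, 28273962, at −21.2 in WT vs KO placebo in the authors' deposited table. Within 2 kb both genes therefore rest on the placebo table alone (a 10 kb margin adds to Ppard position 28228129 with placebo, at −21.5, and 28228100 with SAMe, at −22.6, in the authors' deposited table), and their differences were smaller in size than the lowest of Srebf2. Of all sites listed there, 31.7% were lower than the lowest of Mlxipl and 86.1% lower than that of Ppard.

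Fasn (chromosome 11, 120805958 to 120825166, minus strand), the multifunctional enzyme that builds palmitate from malonyl-CoA, had 6 positions in a pair of groups. The group nearer the start held 4 positions within 44 bp, from 3469 to 3512 bp past the start. From the start inwards, 3 of them stood at −23.6, −20.4 and −21.9 in placebo-treated KO liver and at −29.9, −26.2 and −25.0 under SAMe in the authors' deposited table. The remaining one, 120821035, was listed under SAMe only, at −26.3 in the authors' deposited table. Each of the 3 shared values was lower in the SAMe comparison, by 3.12 to 6.25 points in size. These 3 lie within 34 bp and can come from the same fragments. The other group, 120811863 and 120811888, lay farther into the gene and was listed in WT vs KO placebo only, at −22.2 (q = 1.42e-04) and −27.1 in the authors' deposited table.

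Acacb (chromosome 5, 114146321 to 114250761), the mitochondrial acetyl-CoA carboxylase whose malonyl-CoA restrains fatty acid entry into mitochondria, had 3 positions. Position 114207202 stood at −29.0 in placebo-treated and −24.2 in SAMe-treated KO liver in the authors' deposited table. Near the 3′ end, 114248181 and 114248191 were listed under SAMe only, at −20.0 and −27.4 in the authors' deposited table. The first of these values, −20.01 before rounding to 1 decimal, is the closest to the listing threshold among the 9 genes. Elovl5 (chromosome 9, 77917365 to 77984519), which elongates polyunsaturated fatty acids, had 2 positions listed in both comparisons. Position 77925829 stood at −22.9 (q = 4.16e-04) with placebo and −28.9 with SAMe, and 77963501, which also lies in the noncoding gene Gm34771, at −32.7 and −32.3, in the authors' deposited table.

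Apob (chromosome 12, 7977629 to 8016839), the structural protein of very low density lipoprotein, had a single position, 8007244, 75.5% of the way along the gene, at −28.8 with placebo and −33.5 with SAMe in the authors' deposited table. Cpt1a (chromosome 19, 3322326 to 3385735), the carnitine palmitoyltransferase that admits long-chain fatty acids to mitochondria, had a single position, 3321560, at −20.9 in WT vs KO placebo only in the authors' deposited table. It is the only position outside its gene, 766 bp before the gene's 5′ end and 1741 bp upstream of its annotated start, and so the only one that the 2 kb margin brought in. Just beyond the margin, 2122 bp past the 3′ end of Srebf2, position 82207501 stood at −24.6 with placebo and −28.3 with SAMe in the authors' deposited table.

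Across both WT comparisons, 13 positions in 6 genes were in both tables, 8 in the placebo table only and 5 in the SAMe table only. The comparisons share the WT animals, and a position enters both only if it passes in each, so this split is no measure of similarity between the KO groups. Positions in the placebo table only ranged from −33.0 to −20.9 and those in the SAMe table only from −27.4 to −20.0 in the authors' deposited table. At the 13 shared positions the SAMe-treated minus placebo-treated KO difference, obtained by subtraction, ran from −7.45 at Srebf2 position 82188519 to 4.79 at Acacb position 114207202. It was below 0 at 9 positions and above 0 at 4, with a median of −2.72. The same subtraction over all positions shared by the WT comparisons is not given here. This split therefore has no background beside it and does not set these genes apart. Some of the 13 are close neighbours, in Srebf2, Fasn and Srebf1, and can share sequenced fragments. They are therefore not independent measurements. Every one of these 13 differences was smaller than the 20 points needed for listing in KO placebo vs KO SAMe.

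The pathway around these genes was described with 6 lists of 113 genes by role, 9 of them the genes above. In WT vs KO placebo 28 of the 113 had a listed site (24.8%), and without the 9 it was 19 of 104 (18.3%), beside 12.5% of all coding genes. For WT vs KO SAMe the count was 26 of 113 (23%), and 20 of 104 without the 9 (19.2%), beside 10.8%. All 54 listed sites in each comparison were lower in KO, with medians of −25.6 and −26.6 in the authors' deposited table, close to those of all listed sites. Of all listed sites, 6678 of 6721 with placebo and 5330 of 5383 with SAMe were lower, so the direction does not set the lists apart. Gene length and CpG coverage were not matched and their part was not tested. KO placebo vs KO SAMe listed 0 of the 113 genes, beside 0.658% of coding genes.

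Regulators had a listed site in 8 of 20 genes with placebo and 7 of 20 with SAMe. Without the genes chosen for their sites it was 4 of 16 (25%) and 5 of 16 (31.2%), beside 12.5% and 10.8% of all coding genes. Beyond those described, Rxra, the shared partner of lipid-sensing nuclear receptors, stood at −29.1 and −36.2, Mlx, the partner of ChREBP, at −30.6 and −31.4 (702 bp outside the gene, in Coasy), and Mbtps1, the protease that makes the first cut in SREBP, at −20.1 and −27.2 in the authors' deposited table. Pparg was listed under SAMe only, at −26.2 in the authors' deposited table. Fatty acid synthesis genes had a site in 5 of 18 and 4 of 18, but without the chosen genes in 2 of 15 (13.3%) and 1 of 15 (6.67%), which is near or below the share of all coding genes. Tecr, the reductase of the elongation cycle, stood at −25.9 and −27.7 (a site also in D830024N08Rik) in the authors' deposited table. The desaturase gene Scd2 stood at −26.7 in the placebo comparison only in the authors' deposited table.

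Sterol synthesis genes, none of them among the 9, had a site in 4 of 21 with placebo and 4 of 21 with SAMe (19%). Over all coding genes the shares were 12.5% and 10.8%, which also stand beside the next list. Lss, lanosterol synthase, stood at −26.3 and −31.9, and Mvd, the decarboxylase of the mevalonate pathway, at −25.3 and −31.9 (928 bp outside the gene, in Cyba) in the authors' deposited table. The lowest sites by Acat2, a cytosolic thiolase, were different CpG in the comparisons, 959 and 930 bp outside the gene in Gm20591, at −23.7 with placebo and −29.3 with SAMe in the authors' deposited table. Lbr, a sterol reductase and nuclear lamina receptor, stood at −25.0 and −20.9 in the authors' deposited table. Glycerolipid synthesis genes, also none of the 9, had a site in 3 of 11 in both comparisons (27.3%). Pcyt1a, the rate-limiting enzyme of phosphatidylcholine synthesis from choline, stood at −44.6 and −40.9 in the authors' deposited table. Chka, choline kinase, stood at −24.7 and −25.8, and Gpam at −23.0 and −23.8 (a site also in Gm31356), in the authors' deposited table.

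Lipoprotein and sterol transport genes had a site in 7 of 21 with placebo and 6 of 21 with SAMe. Without Apob it was 6 of 20 (30%) and 5 of 20 (25%), beside 12.5% and 10.8% of all coding genes. Lrp1, a receptor for remnant lipoproteins, stood at −36.6 and −41.6 in the authors' deposited table. Apoa4 stood at −32.8 and −37.5 (484 bp outside the gene) in the authors' deposited table. Abca1, the cholesterol exporter, stood at −35.0 in the placebo comparison only in the authors' deposited table. Fatty acid uptake and oxidation had 1 of 22 genes with placebo, which was Cpt1a, and 2 of 22 with SAMe, and without Cpt1a 0 of 21 and 2 of 21 (9.52%). Those were Cpt1b, at −35.6 by a site 691 bp outside the gene that lies in Chkb, and the fatty acid transporter gene Slc27a2, at −26.8, in the authors' deposited table.

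**Figure D4:**
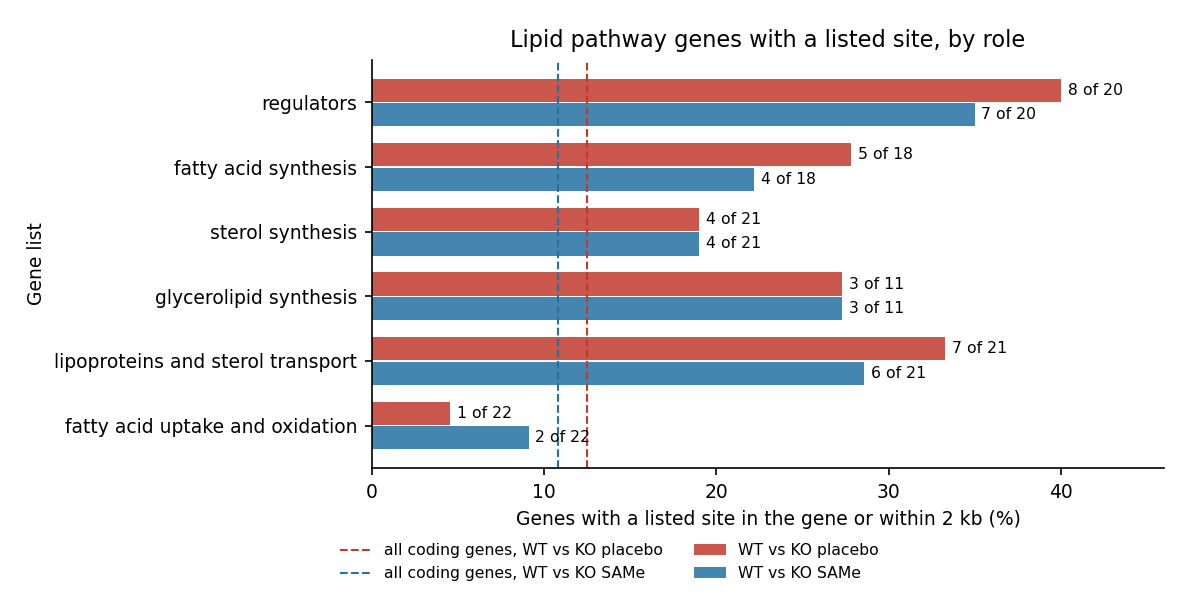
Share of genes in each of 6 lipid pathway lists with a listed site in the gene or within 2 kb, in percent, for WT vs KO placebo (red) and WT vs KO SAMe (blue), with dashed lines at the shares over all coding genes, 12.5% and 10.8%. Bars carry their counts and include the 9 genes chosen with these sites known, without which fatty acid synthesis stands at 13.3% and 6.67%; as drawn, the bars for fatty acid uptake and oxidation end left of the lines.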

How the data were processed

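Per the submitters' processing notes, CASAVA 1.8.2, Trim Galore, Bismark and methylKit were used with mm10, with no order or settings stated. The authors deposited 3 tables of their own comparisons, with 1 CpG position per line. The p-value and q-value of each line were deposited by the authors, while the test behind them is not given in the sources used here. Differences are in percentage points. Over the whole series, 26 other positions were present in all 3 tables, none of them in or within 2 kb of the 9 genes. At these, adding the KO group difference to the placebo value gave the SAMe value within 1e-06 points, so the tables share 1 orientation.

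Sites were assigned with Python 3.11.15 and pandas 2.3.3 to the 21887 protein-coding RefSeq genes of GRCm38.p6 (mitochondrial genes left out), extended by 2 kb. The assignment was tested on simulated data, which recovered 300 of 300 planted genes. Start sites and promoter sequences were found by symbol for all 9 genes. For some of them, such as Acacb, no start lay at the gene's 5′ end, so no window was examined there. Sites within 1 kb were joined into groups. No test was run, because no value per animal is held and the members and lists were chosen with earlier results of these data known. All 9 genes are named, with up to 4 further genes per list by largest absolute difference; some genes meeting this rule are not described. Alternatives were the gene without margin, a 10 kb margin, a difference of at least 25, a q-value of at most 0.01, merged strands and groups joined within 200 bp.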

Additional observations from a re-analysis of the deposited data

How the results depend on the processing

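Requiring a difference of at least 25 points lowered the number of lipid pathway genes hit in WT vs KO placebo from 28 to 17 and the positions of the 9 genes listed in both WT comparisons from 13 to 8, and moved their medians from −28.8 to −31.8 (placebo) and from −29.4 to −32.7 (SAMe). It left no site in Ppard or Cpt1a, and cut the sites of Fasn from 5 to 1 and of Elovl5 from 2 to 1 with placebo and of Acacb from 3 to 1 with SAMe. Such a cut moves the medians of lower sites away from 0 by construction. The medians of all listed sites at this cut are not given. With a 10 kb margin the pathway genes hit numbered 42 in place of 28 in WT vs KO placebo and 42 in place of 26 in WT vs KO SAMe. The medians of the 9 genes' positions were then −27.8 and −28.3, and Ppard had 2 sites with placebo and 1 with SAMe. In KO placebo vs KO SAMe 1 pathway gene entered in place of 0. This was Scd1, through a site 7.18 kb outside it at −20.4 in the authors' deposited table (named after its value was seen). Without the margin the placebo median was −28.9 and Cpt1a had no site. The share of all coding genes with a site is not given for these alternatives. The changed counts of pathway genes therefore have no background beside them and do not set lipid genes apart. No alternative turned a direction among these results, but most of them only drop or merge lines already listed as lower. The 10 kb margin adds lines from the WT comparisons, where nearly all listed sites were lower. The directions were therefore not tested by these alternatives. No paired analysis was possible because the labels give no shared replicate numbers and the tables hold no animals, and for the same reason no animal could be left out. Depth is unknown, so the precision of single differences cannot be given.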

Other observations

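Between 2 and 10 kb outside the genes, listed sites occurred by Srebf2, Fasn, Ppard and Elovl5. Within Shisa8, which begins just beyond the 3′ end of Srebf2, position 82207681 stood at −33.0 in placebo-treated and −44.8 in SAMe-treated KO liver in the authors' deposited table, −11.8 points apart by subtraction. Position 82207507 of Shisa8 was listed under SAMe only, at −20.1 in the authors' deposited table. Within Ccdc57, upstream of Fasn, position 120828653 stood at −23.4 in WT vs KO placebo only in the authors' deposited table, 3487 bp outside Fasn. The sites by Ppard lay in Def6, at −21.5 (placebo) and −22.6 (SAMe), and that by Elovl5, 77990031, in Gm34829, at −20.7 under SAMe only, in the authors' deposited table (both neighbours named after their values were seen).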
